A study of Mus musculus with 18 samples.

Results

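Most genes described here encode solute carriers of the mitochondrial inner membrane or parts of the machinery that imports proteins into mitochondria; a few, such as the peroxisomal carrier Slc25a17, act elsewhere. Members were the genes whose symbol begins with Slc25, Timm or Tomm and whose mean normalised read count was at least 50 in each of the 3 tables of 14.5 dpc lungs. Of 72 genes with these prefixes, 61 were members, out of 23420 rows in each table: 38 of 47 Slc25 carriers and 23 of 25 Timm and Tomm genes (14 Timm and 9 Tomm). The 11 genes below the limit in at least 1 table were Slc25a2, Slc25a18, Slc25a21, Slc25a31, Slc25a34, Slc25a41, Slc25a43, Slc25a48, Slc25a54, Timm8a2 and Tomm20l. Just inside the limit was Slc25a35, with a mean of 51.4 in its lowest table, and just outside it was Slc25a43, with 15.1. All 61 members passed the filter on low values in all 3 tables.

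Whole mouse lungs were profiled by bulk RNA-Seq in 3 lines, each with 1 gene deleted: Rptor, Tfam or Cox10. Rptor encodes the scaffold of mTORC1, Tfam a protein that packages and transcribes mitochondrial DNA, and Cox10 an enzyme that makes heme for cytochrome oxidase. Deficient lungs were Rptorf/f; ShhCre/+, Tfamf/f; ShhCre/+ or Cox10f/f; ShhCre/+, control lungs were Rptorf/+; ShhCre/+, Tfamf/+; ShhCre/+ or Cox10f/+; ShhCre/+ littermates, and each of the 6 groups had 3 samples (18 in all, no control shared between lines). ShhCre is a Cre placed at the Shh locus and active broadly in the lung epithelium, so all groups, controls included, carried 1 altered Shh allele, controls, as labelled, carried 1 floxed allele of the targeted gene, and mesenchyme, vessels and blood were not targeted.

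Most mitochondrial proteins are made in the cytosol and carried across 1 or both mitochondrial membranes. The TOM complex, with its channel Tomm40, its receptors Tomm20, Tomm22 and Tomm70a and small subunits such as Tomm5, Tomm6 and Tomm7, is the entry gate in the outer membrane. TIM23 (channel proteins Timm23 and Timm17, receptor Timm50) passes proteins that bear a cleavable presequence towards the matrix, while small Timm chaperones guide carriers to TIM22, which inserts them into the inner membrane. The Slc25 carriers are themselves cargo of that TIM22 route and exchange nucleotides, phosphate, carboxylates, amino acids and cofactors between the cytosol and the matrix.

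Each sample held 27727202 to 29611064 normalised reads in all, and replicates of a group correlated with r of 0.980 to 0.995 on the log2 scale. The third Cox10-deficient sample correlated least with its group (0.980 and 0.984). RNA of the targeted gene did not separate the groups. Rptor read 2298, 2224 and 2197 in Rptor controls and 2442, 1986 and 2020 in deficient lungs, and its log2 change was -0.066 (adjusted p = 0.570, limma). The Tfam RNA of the Tfam mice and the Cox10 RNA of the Cox10 mice overlapped between groups too, with log2 changes of -0.12 (adjusted p = 0.472, limma) and -0.006 (adjusted p = 0.979, limma), so these whole-lung values give no check of the labels.

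Lung epithelial marker genes (Epcam, Cdh1, Nkx2-1, Krt8, Krt18, Krt19, Cldn6, Sftpc and Foxa2) were read in every sample, as lung tissue should show. In the Rptor line 8 of these 9 markers fell, and their summed normalised read count ranged from 38059 to 44254 in controls and from 13744 to 21071 in deficient lungs. Of the same 9, 3 fell in Tfam-deficient lungs, with sums of 33600 to 36673 against 25862 to 30595, and 1 fell in Cox10-deficient lungs, with sums of 23234 to 23899 against 15617 to 24375. The overlap in the Cox10 line came from Sftpc, which read 386.2, 562.1 and 4084 in the deficient samples. Without Sftpc, left out after its values were seen, Cox10 sums lay apart, at 21994 to 22477 in controls and 15231 to 20292 in deficient lungs. Over the 8 mesenchymal markers, 7 rose in the Rptor line, where sums were 214566 to 244575 in controls and 412317 to 440874 in deficient lungs. Other cell types moved in that line too: 5 of 6 endothelial markers rose (sums of 27937 to 29167 against 34690 to 39797) and all 4 leukocyte markers rose (1846 to 1892 against 2907 to 3562). Of 6 smooth muscle markers 4 fell (Myh11, Actg2, Cnn1 and Tagln) and 1 rose (Acta2), while their sums overlapped. In the Tfam line 4 of the 6 smooth muscle markers fell (sums of 24319 to 27991 against 19093 to 22339), and endothelial and leukocyte sums lay slightly higher without overlap (27836 to 29505 against 29775 to 31683, and 2220 to 2639 against 2672 to 2947), with no single marker of either past the threshold. Smooth muscle sums also lay lower without overlap in the Cox10 line (14529 to 17025 against 10434 to 14190), with no single marker past the threshold. Endothelial and leukocyte sums overlapped there. The plot of marker sums shows the epithelial and mesenchymal sums. In whole-lung RNA, fewer epithelial cells and less RNA of a gene per epithelial cell cannot be told apart, and the part of cell make-up in the member values below was not tested.

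**Figure D1:**
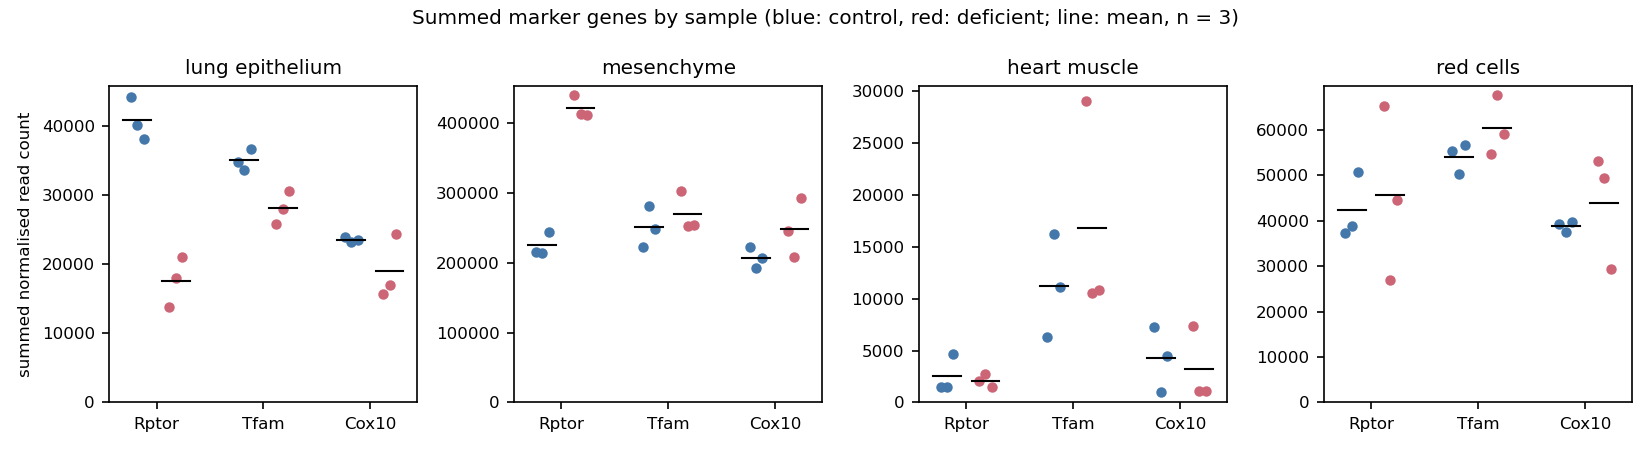
Summed normalised read counts of marker genes of lung epithelium, mesenchyme, heart muscle and red cells in each of the 18 samples, by line; points are samples, blue for control and red for deficient, and lines are means of 3. Epithelial sums lie apart in the Rptor and Tfam lines and overlap in the Cox10 line through Sftpc in 1 deficient sample, mesenchymal sums lie apart in the Rptor line, and heart muscle sums vary between libraries of the same group.

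In Rptor-deficient lungs, 10 of the 38 carriers changed, and most of these fell. The largest falls were those of the dicarboxylate carrier Slc25a10, the ADP/ATP carrier Slc25a5, the basic amino acid carrier Slc25a29, the pyrimidine nucleotide carrier Slc25a33 and the aspartate/glutamate carrier Slc25a13. Slc25a42, which takes up coenzyme A, and Slc25a45, a carrier of less settled substrate, rose. In counts, 8 carriers fell (21.1%), 2 rose (5.26%) and 28 did not pass the test (limma, adjusted p below 0.05 over all 14940 genes tested). Of all genes tested in this line 34.8% passed, 18.2% lower and 16.6% higher, so the share of carriers that fell lay near the background and the share that rose below it. The median log2 change of the carriers was -0.069, against 0.008 over all genes, and 25 of 38 were negative. The groups did not overlap for 5 carriers that were higher and 9 that were lower, where 24.3% and 26.0% of all genes did the same.

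Among the carriers of nucleotides and phosphate, 4 of 10 fell and 1 rose. Slc25a5, which exports ATP from the matrix in exchange for ADP, read 11996, 12987 and 11608 in controls and 7320, 7692 and 7327 in Rptor-deficient lungs. The groups lay apart, and Slc25a5 fell by 0.71 (SE 0.057) on the log2 scale, or by 38.9% (adjusted p = 0.000113, n = 3 per group, limma). Its close relative Slc25a4, another ADP/ATP carrier, read 10549, 9911 and 10700 against 10371, 9639 and 9865. The Slc25a4 groups overlapped, with a log2 change of -0.061 (95% interval -0.18 to 0.063, adjusted p = 0.418).

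Slc25a33 read 231.4, 201.8 and 210.9 in Rptor controls and 130.5, 145.6 and 136.4 in deficient lungs, and fell by 0.64 (SE 0.12) on the log2 scale (adjusted p = 0.00448). Slc25a36, the other pyrimidine nucleotide carrier, overlapped between groups (1959, 2133 and 1839 against 2010, 2345 and 1935, log2 change 0.082, adjusted p = 0.494). Slc25a23, an ATP-Mg/phosphate carrier, read 1468, 1320 and 1502 against 1129, 1161 and 1134, and fell by 0.32 (adjusted p = 0.0076). The phosphate carrier Slc25a3 read 13210, 13756 and 14165 against 11766, 11139 and 11926, and fell by 0.24 (adjusted p = 0.0093). In each of these 3 falls every deficient sample lay below every control.

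Slc25a42 moved the other way. It read 185.5, 177.8 and 171.1 in Rptor controls and 263.1, 352.5 and 315.2 in deficient lungs, a rise of 72.6% (log2 change 0.79, SE 0.13, adjusted p = 0.00252), with no overlap. Slc25a24, Slc25a25, Slc25a36 and the NAD carrier Slc25a51 did not pass the test, and their log2 changes lay between -0.092 and 0.12.

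**Figure D2:**
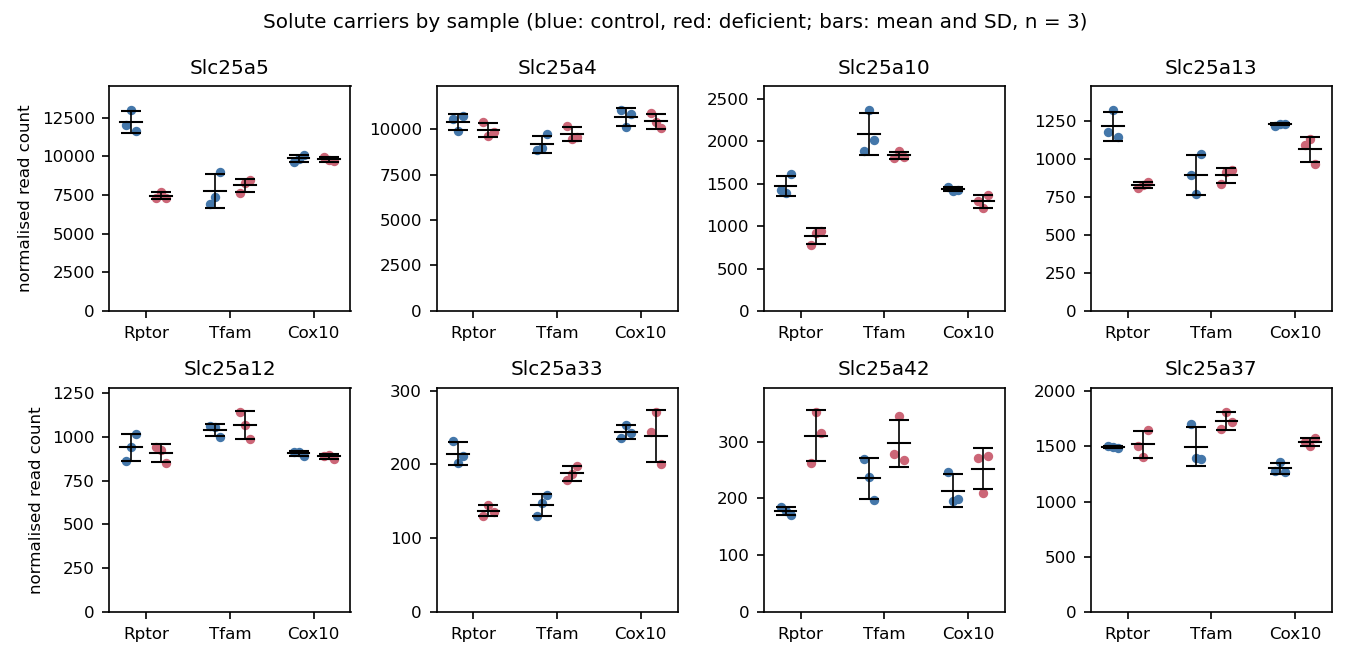
Normalised read count of 8 solute carriers in each of the 18 samples, by line, on linear axes that start at 0; points are samples (blue for control, red for deficient) and bars give the mean and SD of 3. In the Rptor line Slc25a5, Slc25a10, Slc25a13 and Slc25a33 lie lower and Slc25a42 higher in every deficient sample, while Slc25a4 and Slc25a12 overlap.

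Of the 9 carriers of amino acids and one-carbon cofactors, 3 fell and none rose in the Rptor line, and all 9 had a negative log2 change. Slc25a13, an aspartate/glutamate carrier of the malate-aspartate shuttle, read 1174, 1320 and 1143 against 810.7, 829.9 and 849.8, and fell by 31.4% (log2 change -0.54, SE 0.074, adjusted p = 0.0011). Its relative Slc25a12 read 859.6, 943.1 and 1013 against 941.2, 925.9 and 847.8, which overlap (log2 change -0.051, adjusted p = 0.668). The ornithine carrier Slc25a15 fell by 0.25 on the log2 scale, from a mean of 1117 to 939.1 (adjusted p = 0.0293). Slc25a29 fell by 0.65, from 133.6, 135.9 and 125.3 to 60.17, 92.1 and 104.7 (adjusted p = 0.0408). The last 2 calls were fragile: with 1 sample left out, Slc25a15 stayed past the threshold in 3 of 6 fits and Slc25a29 in 1 of 6. Without the first deficient sample the change of Slc25a29 was -0.42 (adjusted p = 0.056). The glutamate carrier Slc25a22 and the glycine carrier Slc25a38 overlapped between groups, at -0.079 and -0.098.

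Slc25a10 was the only carrier of the carboxylate and acylcarnitine group that passed, of 4. It read 1423, 1389 and 1609 in Rptor controls and 778.1, 923.9 and 945.7 in deficient lungs, and fell by 40.2% (log2 change -0.74, SE 0.094, adjusted p = 0.000793). The citrate carrier Slc25a1 (log2 change -0.078) and the acylcarnitine carrier Slc25a20 (0.064) overlapped between groups, and the oxoglutarate carrier Slc25a11 was higher in every deficient sample without passing the test (0.15, adjusted p = 0.083).

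None of the 5 carriers of iron, glutathione and thiamine cofactors passed in the Rptor line. The mitoferrins Slc25a37 and Slc25a28, which bring iron into mitochondria, had log2 changes of 0.019 (adjusted p = 0.854) and 0.098 (adjusted p = 0.349). The glutathione carriers Slc25a39 and Slc25a40 were at -0.053 (adjusted p = 0.577) and 0.32 (adjusted p = 0.0689), and Slc25a40 passed without the first deficient sample (0.40, adjusted p = 0.0211). In the group of uncoupling-protein-like carriers, carriers of other organelles and carriers without a settled substrate, 1 of 10 rose and none fell. This was Slc25a45, which read 153.6, 150.9 and 144.2 against 185.6, 217.9 and 224.3 (log2 change 0.48, adjusted p = 0.0175) and stayed past the threshold in 2 of 6 fits with 1 sample left out.

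The promoters of the members were read for short motifs, and the 17 genes that fell in the Rptor line were described beside the rest. RefSeq windows (GRCm38.p6, 250 bases before to 50 after the gene start) were matched for 49 of the 61 members, 16 of them among the 17 that fell. CACGTG, an E-box that reads the same on both strands, was found in 4 of those 16 (Slc25a13, Slc25a15, Slc25a33 and Timm8a1) and in 6 of the other 33 (Slc25a1, Slc25a14, Slc25a36, Timm9, Timm10 and Tomm20). Over all 27025 genes with a window, 8.09% held it. TGATGNAA (N any base, either strand) was in no member window and in 4.51% of all genes, and the NRF1 consensus was in no member window and in 1.07% of all genes. The windows of the 4 falling genes with the E-box are printed with that of Slc25a5, which fell with the smallest adjusted p-value and holds no match. They lie at chrX:36795347-36795646 (+ strand), chr6:6217124-6217423 (- strand), chr8:22398228-22398527 (- strand, 1 of its 2 windows), chr4:149774218-149774517 (- strand) and chrX:134541621-134541920 (- strand), and capitals mark CACGTG:
Slc25a5: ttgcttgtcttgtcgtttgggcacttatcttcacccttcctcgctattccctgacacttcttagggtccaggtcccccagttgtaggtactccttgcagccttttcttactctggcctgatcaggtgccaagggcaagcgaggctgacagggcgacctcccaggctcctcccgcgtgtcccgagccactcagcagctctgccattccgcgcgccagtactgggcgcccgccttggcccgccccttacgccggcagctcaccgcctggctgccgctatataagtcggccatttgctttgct
Slc25a13: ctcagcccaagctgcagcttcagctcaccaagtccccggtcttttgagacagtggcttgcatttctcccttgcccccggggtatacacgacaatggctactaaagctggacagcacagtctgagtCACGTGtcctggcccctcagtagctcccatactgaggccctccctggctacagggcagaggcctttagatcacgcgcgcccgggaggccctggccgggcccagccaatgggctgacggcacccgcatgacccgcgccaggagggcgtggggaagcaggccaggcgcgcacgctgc
Slc25a15: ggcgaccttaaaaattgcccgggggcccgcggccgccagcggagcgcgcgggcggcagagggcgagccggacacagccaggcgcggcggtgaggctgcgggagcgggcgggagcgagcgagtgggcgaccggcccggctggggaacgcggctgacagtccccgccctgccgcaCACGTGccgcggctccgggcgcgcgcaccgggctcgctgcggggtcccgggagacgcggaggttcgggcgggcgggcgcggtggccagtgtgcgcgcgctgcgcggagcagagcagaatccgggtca
Slc25a33: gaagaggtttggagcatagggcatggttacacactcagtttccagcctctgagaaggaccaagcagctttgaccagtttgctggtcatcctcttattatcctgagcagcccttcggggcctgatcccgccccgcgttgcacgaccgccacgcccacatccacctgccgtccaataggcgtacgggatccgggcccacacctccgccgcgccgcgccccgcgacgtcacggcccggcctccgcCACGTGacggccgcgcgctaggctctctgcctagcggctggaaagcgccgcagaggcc
Timm8a1: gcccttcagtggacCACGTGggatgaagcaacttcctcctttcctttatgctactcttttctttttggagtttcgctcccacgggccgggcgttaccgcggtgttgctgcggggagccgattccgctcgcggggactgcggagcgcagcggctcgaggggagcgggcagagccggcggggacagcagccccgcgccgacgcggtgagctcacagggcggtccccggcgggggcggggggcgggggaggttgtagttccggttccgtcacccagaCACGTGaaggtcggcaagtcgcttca
The match began 125 bases before the start in Slc25a13, 77 before it in Slc25a15 and 8 before it in Slc25a33, and Timm8a1 held 2, one 236 bases before and one 24 after the start. A match of letters is a description of the window and does not show that a factor binds there.

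All import genes that passed the test in Rptor-deficient lungs fell. Of 23 Timm and Tomm genes 9 fell, none rose and 14 did not pass the test. The members that fell included the outer membrane channel Tomm40, the receptors Tomm22 and Tomm70a and the inner membrane channel protein Timm23. That is 39.1% of the import genes lower, beside 18.2% of all genes tested. The median log2 change was -0.22 against 0.008 over all genes, and 20 of 23 were negative. In 15 of 23 every deficient sample lay below every control, and in 1, Timm17b, above; over all genes 26.0% lay below and 24.3% above. The falls were smaller than those of the leading carriers, and the largest was that of Timm23, which fell by 24.4%. With the third Rptor control left out, or at an adjusted p below 0.01, 5 import genes fell.

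All 9 Tomm genes had negative log2 changes in the Rptor line and 5 of them fell (55.6%, beside 18.2% of all genes tested). Tomm22, the central receptor, read 3077, 2805 and 3007 in controls and 2430, 2348 and 2476 in deficient lungs, and fell by 0.29 (SE 0.057) on the log2 scale (adjusted p = 0.00535). Tomm70a, the receptor that carriers use, read 4660, 5219 and 4982 against 3662, 4146 and 4113, and fell by 0.32 (SE 0.068, adjusted p = 0.00797). Tomm40 read 2930, 2775 and 3147 against 2386, 2384 and 2484 (fell by 0.29, adjusted p = 0.00798). In all 3 the groups were separate. The small subunit Tomm7 read 1967, 1777 and 1776 against 1521, 1377 and 1459 (fell by 0.34, adjusted p = 0.00596). Tomm5 fell by 0.26 (adjusted p = 0.0254), a call kept in 4 of 6 fits with 1 sample left out. Tomm6 (log2 change -0.21, adjusted p = 0.073), Tomm34 (-0.16), Tomm20 (-0.12) and Tomm40l (-0.09) did not pass the test.

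In TIM23, 3 of 6 genes fell. Timm23 read 1669, 1689 and 1711 in Rptor controls and 1174, 1328 and 1335 in deficient lungs, and fell by 0.40 (SE 0.068) on the log2 scale (adjusted p = 0.0027). Timm17a, which forms the channel with it, read 1213, 1309 and 1315 against 949.4, 1165 and 937.8, and fell by 0.34 (adjusted p = 0.0234). The alternative subunit Timm17b read 1317, 1016 and 1354 against 1449, 1382 and 1436. Timm17b was higher in every deficient sample but did not pass (log2 change 0.22, adjusted p = 0.137), and without the second control, which read lowest, the change was 0.091 (adjusted p = 0.344). The receptor Timm50 fell by 0.23 (adjusted p = 0.035), while Timm44 (-0.081) and Timm21 (0.043) overlapped between groups. With 1 sample left out, Timm17a stayed past the threshold in 3 of 6 fits and Timm50 in 2 of 6.

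In the TIM22 route 1 of 7 genes fell, the intermembrane space chaperone Timm8a1. It read 482.7, 446.6 and 492.4 against 314.1, 387.2 and 389.3 (fell by 0.39, adjusted p = 0.025, kept in 4 of 6 fits with 1 sample left out). The chaperones Timm9 (log2 change -0.25, adjusted p = 0.0507), Timm10 (-0.24, adjusted p = 0.0736), Timm8b (-0.22, adjusted p = 0.067) and Timm10b (-0.16, adjusted p = 0.131) were also lower in every deficient sample. The insertase Timm22 itself overlapped, at 0.043. Timmdc1, which shares the prefix but assists complex I assembly, was at -0.027.

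**Figure D3:**
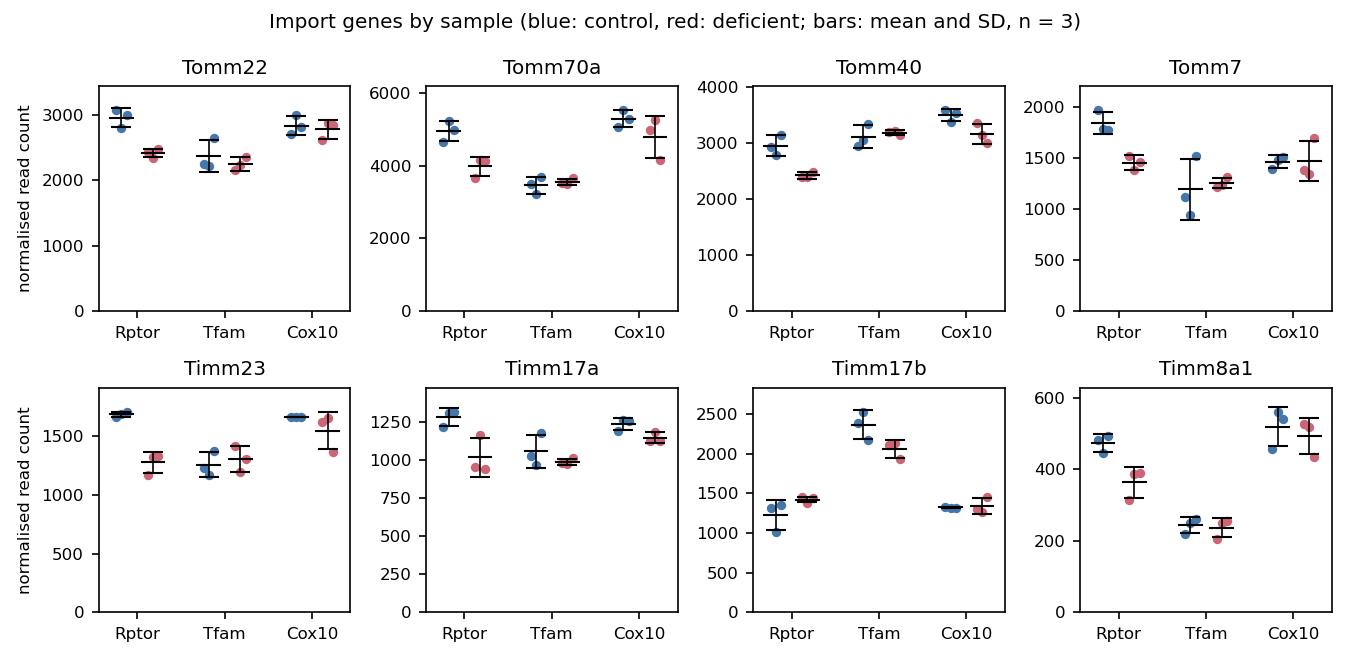
Normalised read count of 8 import genes in each of the 18 samples, by line, on linear axes that start at 0; points are samples (blue for control, red for deficient) and bars give the mean and SD of 3. In the Rptor line all genes shown lie lower in every deficient sample except Timm17b, which lies higher.

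The first Rptor-deficient sample, which had the lowest epithelial marker sum (13744, against 18017 and 21071), was the lowest of the 3 deficient samples in 12 of the 17 members that fell. Over all 2719 genes that fell in this line it was the lowest in 1442. With it left out, 15 of the 17 still fell, Slc25a5 by 0.70, Slc25a10 by 0.65 and Timm23 by 0.34, and Slc25a29 and Timm50 (adjusted p = 0.0597) no longer passed.

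Genes of the same pathways without these prefixes were read in the same fit. Of 20 import genes outside the prefixes, 7 fell in the Rptor line and none rose. They included the matrix motor Hspa9 (13880, 14678 and 14428 against 11437, 11402 and 11296, fell by 0.33), the intermembrane space oxidoreductase Chchd4 (fell by 0.34), the motor co-chaperone Dnajc15 (fell by 0.45), Grpel1 (fell by 0.26), Mipep (fell by 0.27), Gfer (fell by 0.21) and the sorting complex protein Samm50 (fell by 0.17). Of 18 other membrane transporters tested, 4 fell (Letm1, Ucp2, Mtch2 and Vdac3, by 0.45 to 0.20) and 2 rose (Sfxn3 by 0.45 and Sfxn4 by 0.51). Both lists were described by these counts only, beside the background of 18.2% lower and 16.6% higher.

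**Figure D4:**
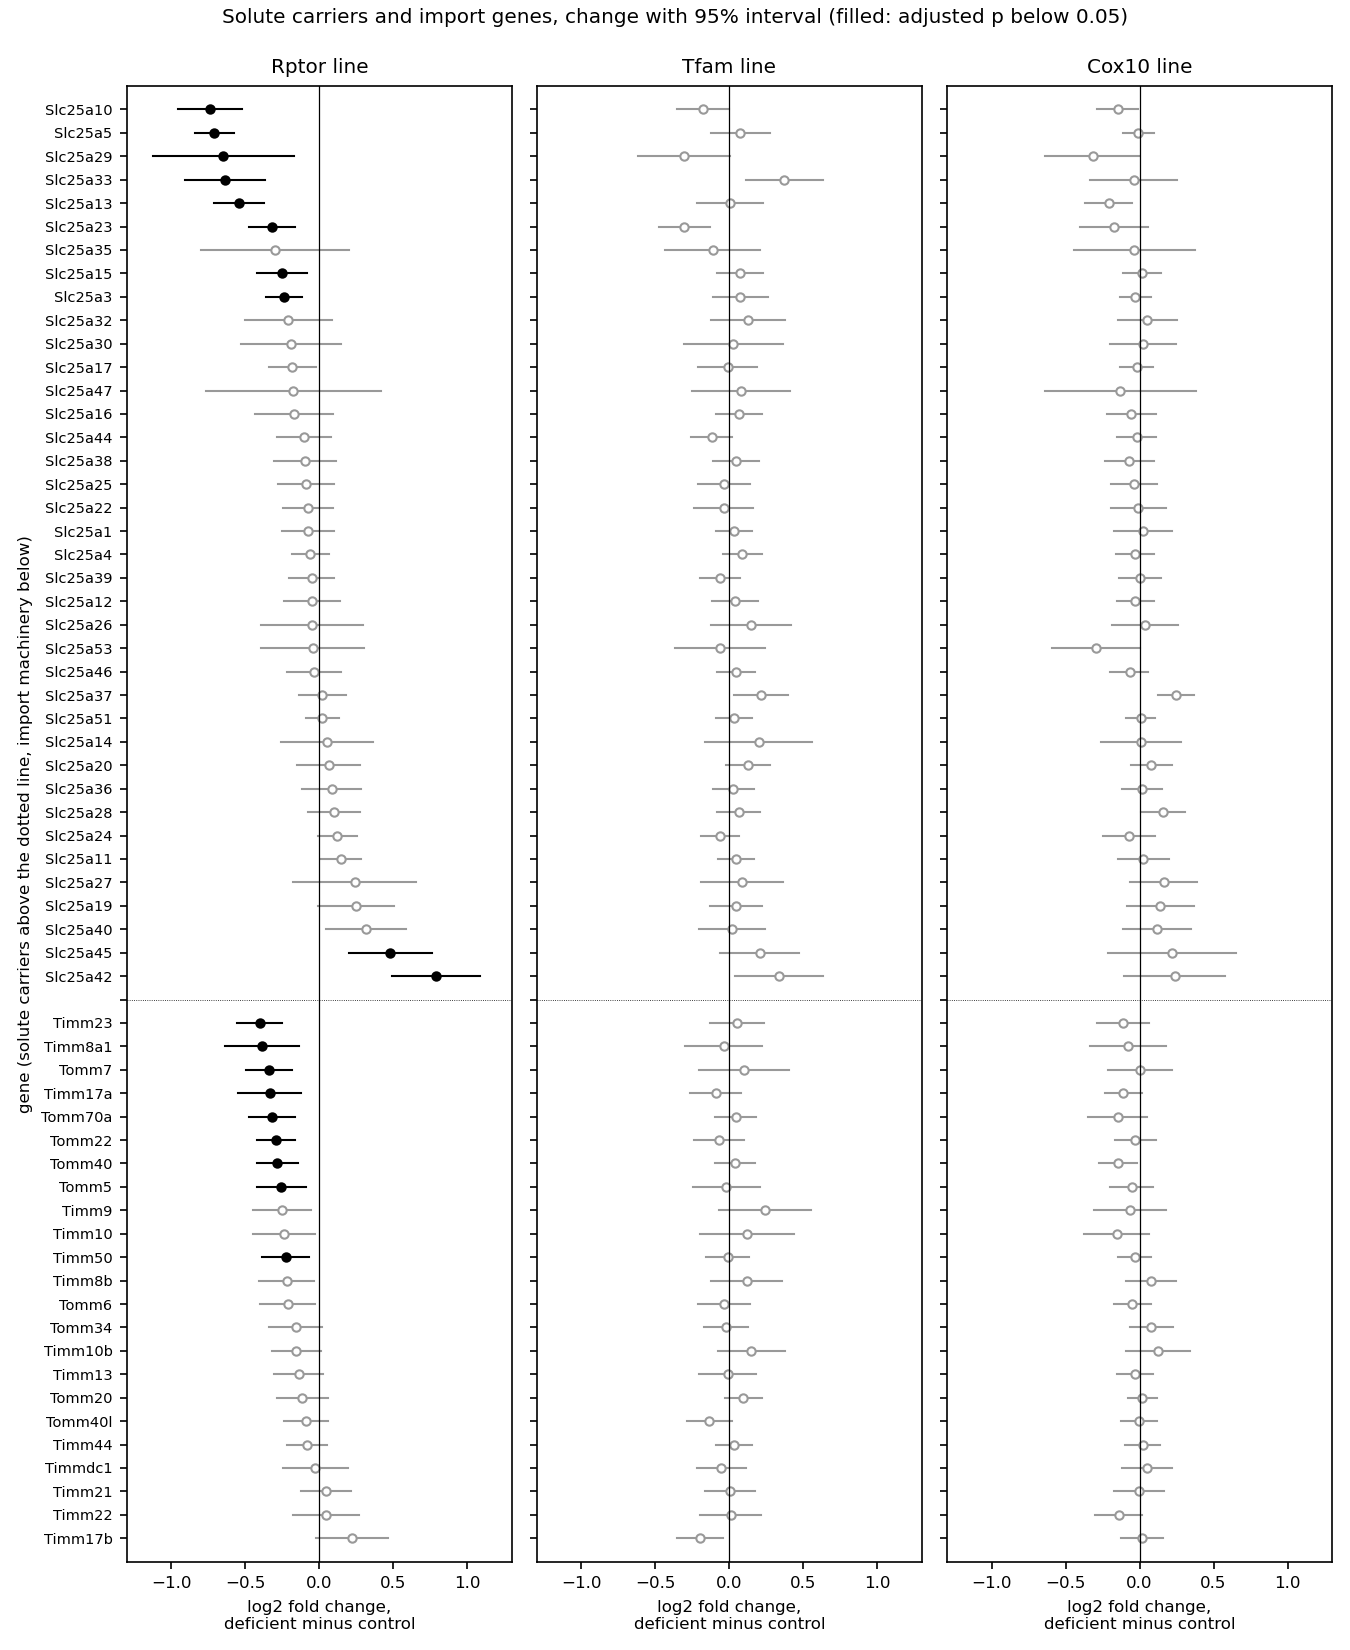
Log2 fold change (deficient minus control, on the log2(value + 1) scale) of the 61 members in each line, with 95% intervals, ordered within carriers and import genes by the Rptor line; filled points passed the test. Filled points are in the Rptor line alone: 8 carriers and 9 import genes to the left of 0 and 2 carriers to the right.

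In Tfam-deficient lungs no member passed the test (limma, adjusted p below 0.05), where 4.66% of 15053 genes did (2.03% higher and 2.63% lower). Unadjusted p-values were below 0.05 for 3 carriers that were higher and for 2 carriers and 1 import gene that were lower, beside 8.29% of all genes higher and 9.10% lower. The groups did not overlap for 2 members that were higher and 5 that were lower, beside 10.9% and 11.8% of all genes. The median log2 change was 0.042 over carriers and 0.002 over import genes, against 0.001 over all genes. Slc25a23 had the smallest adjusted p-value of the carriers: it read 3631, 3657 and 3164 in controls and 3052, 2857 and 2559 in deficient lungs, with a log2 change of -0.30 and an adjusted p of 0.0569. The groups did not overlap, and the value passed when the third control was left out (adjusted p = 0.0159) or with the replicate number as a block (adjusted p = 0.0105). In this line samples share only a number, so the block is no test of pairs. Slc25a33 read 130, 147.5 and 159 against 178.6, 186.6 and 198.4, higher in every deficient sample (log2 change 0.37, adjusted p = 0.119), which is the opposite direction to the Rptor line. Slc25a10 (log2 change -0.18, adjusted p = 0.271) and Timm17b (-0.20, adjusted p = 0.162) were lower in every deficient sample. Slc25a42 (0.34, adjusted p = 0.226) and Slc25a37 (0.22, adjusted p = 0.201) overlapped. Without the third Tfam control, Timm17b passed (adjusted p = 0.0358). The companion Hspa9 read 8674, 8689 and 9966 against 10549, 10888 and 10970, all higher (log2 change 0.25, adjusted p = 0.0632), and none of the 38 companion genes tested passed.

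In Cox10-deficient lungs no member passed either, where 0.475% of 14937 genes did (0.141% higher and 0.335% lower), nor with the third deficient sample left out. Unadjusted p-values were below 0.05 for 2 carriers that were higher and for 3 carriers and 1 import gene that were lower, beside 6.40% of all genes higher and 6.62% lower. The groups did not overlap for 2 members that were higher and 7 that were lower, beside 10.6% and 10.8% of all genes. The median log2 change was -0.009 over carriers and -0.030 over import genes. The mitoferrin Slc25a37 had the smallest adjusted p-value: it read 1280, 1355 and 1268 in controls and 1543, 1504 and 1576 in deficient lungs, with no overlap (log2 change 0.24, SE 0.052, adjusted p = 0.123). The other mitoferrin, Slc25a28, read 638.2, 692.9 and 645.6 against 730.5, 755.2 and 722.6, also without overlap (0.16, adjusted p = 0.361). Slc25a37 is made at a high level by developing red cells, whose 8 marker genes found in the tables summed to 37593 to 39858 in Cox10 controls and 29500 to 53181 in deficient lungs. The embryonic globin Hbb-y made up 82.5% of the control sum, and Hba-a1 and Hba-a2 were at or near 0. Without Hbb-y, left out after its values were seen, sums were 6439 to 7023 and 6136 to 8798. Of the 6 red cell markers tested 5 had a positive log2 change and none passed. The anion exchanger Slc4a1 was higher in every deficient sample (1054, 919.9 and 976.4 against 1484, 1057 and 1078), and the heme synthesis enzyme Alas2 averaged 859.2 against 1140, with overlap. In the Rptor line, where Slc25a37 changed by 0.019, Slc4a1 averaged 658 in controls and 1064 in deficient lungs, and Alas2 1780 and 2280. In the Tfam line, where it changed by 0.215, Slc4a1 averaged 1424 and 1507, and Alas2 2241 and 2006. The part of red cells in the Slc25a37 values was not tested. In the Cox10 line, Slc25a13 (log2 change -0.21, adjusted p = 0.290), Slc25a10 (-0.15, adjusted p = 0.360) and Slc25a29 (-0.32, adjusted p = 0.382) were lower in every deficient sample. The 3 import genes without overlap, Timm17a, Timm23 and Tomm40, were lower too, at -0.11, -0.11 and -0.15.

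The precision of the 2 mitochondrial lines bounds what could be seen. The 95% interval of the change lay within 1.5-fold either way for 35 of 38 carriers and all 23 import genes in Tfam-deficient lungs, and for 34 of 38 carriers and all 23 import genes in Cox10-deficient lungs. In the Rptor line, where 9 import genes fell, it did so for 27 of 38 carriers and 22 of 23 import genes. The 1.5-fold bound alone therefore does not exclude falls as small as those of the import genes in the Rptor line. A p-value above the threshold does not show that a gene was unchanged, and these values average the epithelium with cells that were not targeted.

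Whether the lines differed was tested directly, as the difference of the deficient-minus-control changes in 1 model of all 18 samples over the 14550 genes tested in every line. Between the Rptor and Tfam lines 6 of 38 carriers differed (15.8%, all lower in the Rptor line) and 4 of 23 import genes did (3 lower, 1 higher), beside 11.2% of all genes (6.35% lower and 4.82% higher). The largest difference was that of Slc25a33, -1.01 on the log2 scale (SE 0.16, adjusted p = 0.00101), made of a fall of 0.64 in the Rptor line and a change of 0.37 in the Tfam line. Slc25a5 differed by -0.78 (adjusted p = 0.000227), Slc25a10 by -0.56 (adjusted p = 0.00751), Slc25a13 by -0.55 (adjusted p = 0.0114), Slc25a15 by -0.32 (adjusted p = 0.0288) and Slc25a3 by -0.31 (adjusted p = 0.0414). Of the import genes, Timm23 differed by -0.46 (adjusted p = 0.0168), Tomm70a by -0.36 (adjusted p = 0.044), Tomm40 by -0.32 (adjusted p = 0.0193) and Timm17b by 0.42 (adjusted p = 0.0391). Without the second Rptor control, the Timm17b difference was 0.29 (adjusted p = 0.0794). With each of the 12 samples left out in turn, Slc25a33, Slc25a5, Slc25a10 and Slc25a13 passed in all 12 fits, Timm23 in 11, Tomm40 in 9, Slc25a15 in 6, and Slc25a3, Tomm70a and Timm17b in 4 each. The number of import genes hung on single samples, at 0 without the second Tfam control and 12 without the third. It was 8 with the replicate number as a block, though the Tfam samples share only a number.

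Between the Rptor and Cox10 lines, 3 carriers differed (7.89%, all lower in the Rptor line) and no import gene did, beside 7.48% of all genes (3.27% higher and 4.21% lower). The 3 were Slc25a5 (-0.70, adjusted p = 0.000629), Slc25a10 (-0.59, adjusted p = 0.00577) and Slc25a33 (-0.60, adjusted p = 0.0337). With 1 sample left out, Slc25a5 and Slc25a10 passed in all 12 fits and Slc25a33 in 4 (adjusted p up to 0.0895). At an unadjusted p below 0.05, 5 import genes were lower in the Rptor line (12.6% of all genes were), so in this fit the import falls of the Rptor line were not shown to differ from the Cox10 changes. With the replicate number as a block 1 import gene differed, though the Cox10 samples share only a number. Between the Tfam and Cox10 lines no member differed (limma), beside 0.0550% of all genes past the threshold (0.0481% with the Tfam change above and 0.00687% below). The Tfam change lay above the Cox10 change at an unadjusted p below 0.05 for 1 carrier and 1 import gene, beside 2.23% of all genes.

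Related genes were also compared within each sample, as the log2 ratio of 6 pairs, since a ratio within a library does not depend on its scaling. The ratio of Slc25a5 to Slc25a4 changed by -0.65 in the Rptor line, with 3 controls at 0.19, 0.39 and 0.12 and 3 deficient samples at -0.50, -0.33 and -0.43. Its change was -0.014 for Tfam and 0.022 for Cox10, where the groups overlapped. The ratio of Slc25a33 to Slc25a36 changed by -0.72 in the Rptor line and by 0.35 in the Tfam line, without overlap in both, and by -0.06 in the Cox10 line, with overlap. The ratio of Slc25a13 to Slc25a12 was lower in every deficient sample of the Rptor line (-0.49) and of the Cox10 line (-0.18). The ratio of Timm17a to Timm17b was lower (-0.56, or -0.41 without the second control) and that of Slc25a40 to Slc25a39 higher (0.37) in every Rptor-deficient sample, and the ratio of the mitoferrins Slc25a37 and Slc25a28 overlapped in all 3 lines. With 3 samples against 3 an exact two-sided permutation test cannot go below p = 0.1, which was the value for each of the 7 of 18 ratios without overlap, so none could pass a threshold of 0.05. Single genes lay apart between the Rptor groups for 24.3% of all genes higher and 26.0% lower. For Tfam these shares were 10.9% and 11.8%, and for Cox10 10.6% and 10.8%. The share over other pairs of genes was not computed. Differences in gene length cancel in the change of a ratio but not in its level.

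**Figure D5:**
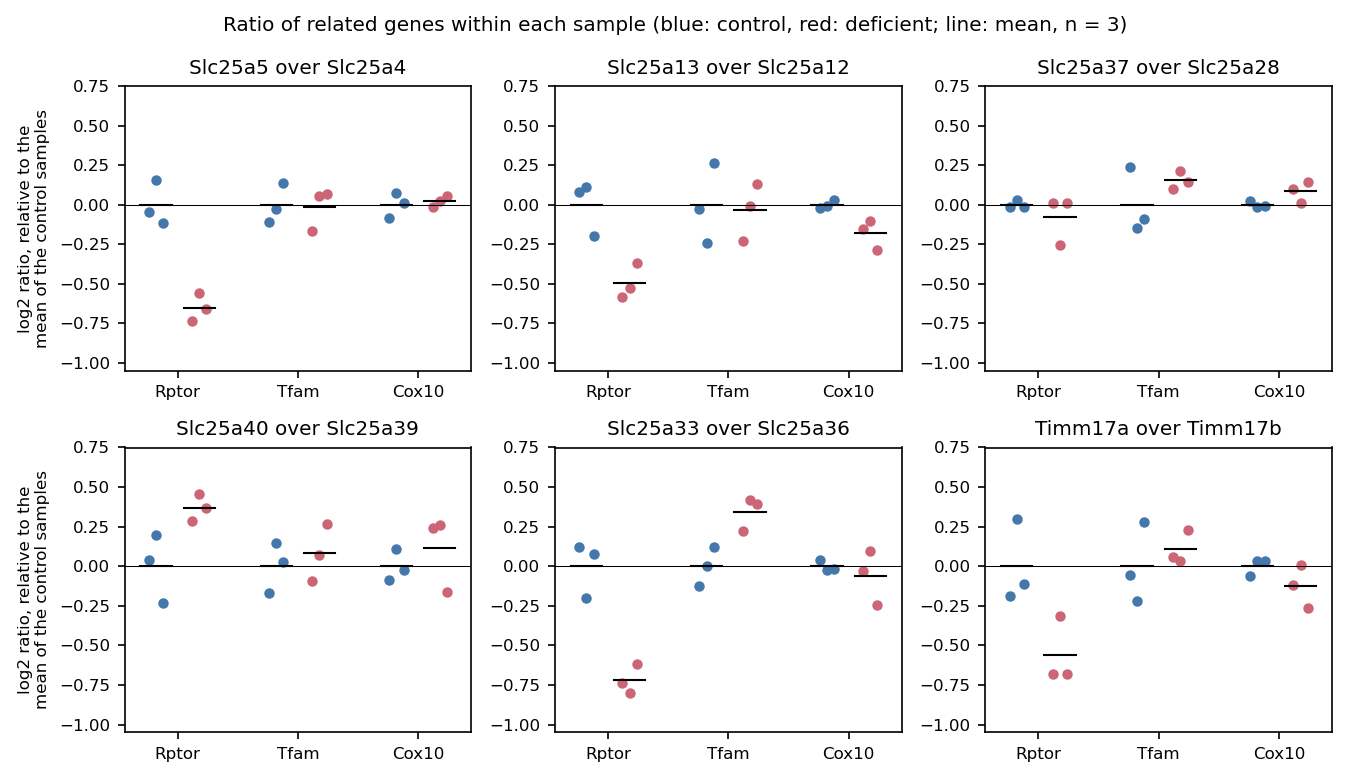
Log2 ratio of 6 pairs of related genes within each sample, set to 0 at the mean of the 3 control samples of each line; points are samples (blue for control, red for deficient) and lines are means. In the Rptor line 5 of the 6 ratios separate the groups, and the share over other pairs of genes was not computed. Slc25a33 over Slc25a36 lies lower in Rptor-deficient and higher in Tfam-deficient samples.

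In GENCODE vM21 (GRCm38, the same assembly as mm10) all 61 members were found, on 19 chromosomes. Slc25a5 lies at chrX:36795651-36798807, Slc25a10 at chr11:120491840-120499187, Slc25a13 at chr6:6041218-6217173, Slc25a33 at chr4:149744036-149774277, Slc25a42 at chr8:70184340-70212305, Timm23 at chr14:32180162-32201898 and Tomm22 at chr15:79670861-79673400. Exons of 19 members overlap exons of a gene on the other strand, among them Slc25a10 (Gm11788), Slc25a33 (Gm13068), Slc25a23 (Gm17168), Timm17b (Gm10491), Tomm40 (Gm20512) and Tomm70a (Nit2), and exons of 5 overlap a gene on the same strand, among them Timm23 (Gm23946). Whether reads were counted by strand is not given in the sources used here, so reads from these partners cannot be told apart from the member's own, and reads of Slc25a5 may be shared with its pseudogene copies.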

How the data were processed

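Whole lungs at 14.5 dpc were sequenced on a BGISEQ-500 after TRIzol and RNeasy extraction, with 3 samples in each of 6 groups. The authors deposited 1 table per line of normalised read counts (a signal: read counts divided by a size factor per sample). The submitters' processing notes name Trim Galore, HISAT2, featureCounts, DESeq2 and mm10, with no versions. Low values were whole multiples of 1 step per sample, but no count test was run on them. The tables also hold the authors' fold changes and p-values, which were not used.

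Per line, log2(value + 1) of genes with at least 10 in at least 3 of 6 samples was fitted in limma 3.58.1 (R 4.3.3; lmFit and eBayes with a mean-variance trend, two-sided, Benjamini-Hochberg over all genes tested, threshold adjusted p of 0.05). Percent changes are those of the fitted log2 means, relative to control, and understate the change of low genes. Differences between lines came from 1 model of 6 groups. The scripts were tested on simulated data. Tables were normalised separately, so tests ran within a table or on changes. Groups came from the labels, which do not say which animal or litter gave each sample, so p-values measure the spread between these samples. In the Rptor line, same-numbered control and deficient samples deviated together (correlations of 0.221, 0.330 and 0.259), so there the numbers were taken as a likely pairing. In the Tfam (-0.312, -0.207 and 0.151) and Cox10 (0.447, 0.202 and 0.049) lines they were not. The main fits used no pairing in any line, and the replicate number entered only as a block among the alternatives.

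Members, functional lists and tests were chosen with earlier results of these data known, and 1 listed gene outside the members is not reported here. Named with values were, per line and class, the 6 largest rises and 6 largest falls past the threshold, members past it in at least 2 lines, the 5 largest differences per pair of lines, 6 groups of related genes, and companions past it in at least 2 lines; Slc25a3, Slc25a15, Timm50, Tomm5 and Tomm40 and other genes given with values outside this rule, the companions included, were named after their values were seen. Alternatives tried were another scaling, 2 other filters, another pseudocount, a replicate block, all 18 samples in 1 fit, a threshold of 0.01 and leaving out each sample.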

Additional observations from a re-analysis of the deposited data

Results flagged for a closer look

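The deficient-minus-control change differed between lines past the threshold for 10 members between the Rptor and Tfam lines and for 3 between the Rptor and Cox10 lines, each by the test of the difference itself. As Rptor minus Tfam on the log2 scale these were Slc25a33 (-1.008), Slc25a5 (-0.784), Slc25a10 (-0.560), Slc25a13 (-0.546), Timm23 (-0.457), Tomm70a (-0.360), Slc25a15 (-0.324), Tomm40 (-0.322), Slc25a3 (-0.312) and Timm17b (0.422). As Rptor minus Cox10 they were Slc25a5 (-0.702), Slc25a33 (-0.597) and Slc25a10 (-0.593). Of these 13 differences, 6 stayed past the threshold whichever of the 12 samples of the pair was left out: Slc25a5 and Slc25a10 in both pairs, and Slc25a33 and Slc25a13 between the Rptor and Tfam lines. The Rptor minus Cox10 difference of Slc25a33 stayed past it in 4 of 12 such fits.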

How the results depend on the processing

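Counts of members past the threshold in the Rptor line were 8 carriers and 9 import genes lower and 2 carriers higher. With all 18 samples in 1 fit 4 carriers rose, and at an adjusted p below 0.01, 1 carrier rose and 5 import genes fell. With 1 sample left out, between 1 and 3 carriers rose, 6 to 8 carriers fell and 5 to 9 import genes fell. In the Tfam line 0 to 1 carriers and 0 to 1 import genes fell, and in the Cox10 line none passed in any such fit. Between the Rptor and Tfam lines 4 to 6 carriers and 0 to 12 import genes differed; at an adjusted p below 0.01 there were 3 carriers and 0 import genes. Between the Rptor and Cox10 lines 2 to 4 carriers and 0 to 1 import genes differed, the 1 being without the third Cox10-deficient sample. Why these counts moved was not tested, and each fit with 1 sample left out also held fewer samples.

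With the replicate number as a block, the Rptor line kept its counts of 2 carriers that rose and 8 carriers and 9 import genes that fell. In the Tfam line the block gave 1 carrier that fell (Slc25a23). The block raised the import genes that differed to 8 between the Rptor and Tfam lines and to 1 between the Rptor and Cox10 lines, and changed no other count by more than 1.5 times; in the Tfam and Cox10 lines the samples share only a number.

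Of the 19 calls in the Rptor line, 12 stayed past the threshold whichever sample was left out; the other 7 were Slc25a15, Slc25a29, Slc25a45, Timm17a, Timm50, Timm8a1 and Tomm5. With no filter on low values Slc25a29 (adjusted p = 0.0585) and the Rptor minus Tfam differences of Slc25a3 (adjusted p = 0.0515) and Tomm70a (adjusted p = 0.0526) no longer passed, and with all 18 samples in 1 fit Slc25a40 passed in the Rptor line (adjusted p = 0.0271). Scaling by trimmed means, a mean filter of 50 and a pseudocount of 0.1 changed no call of a named member. Among the named members, for which single-gene alternatives were run, changes near 0 that did not pass changed sign with 1 sample left out. On the log2 scale these were, in the Rptor line, Slc25a12 (-0.112 to 0.006), Slc25a36 (-0.001 to 0.138), Slc25a37 (-0.041 to 0.076); in the Tfam line, Slc25a12 (-0.013 to 0.093), Slc25a13 (-0.104 to 0.109), Slc25a40 (-0.044 to 0.084), Slc25a5 (-0.007 to 0.184), Timm23 (-0.008 to 0.120), Timm50 (-0.048 to 0.048), Timm8a1 (-0.113 to 0.058), Tomm22 (-0.116 to 0.011), Tomm40 (-0.002 to 0.088), Tomm5 (-0.096 to 0.104), Tomm7 (-0.059 to 0.290), Tomm70a (-0.011 to 0.087); and in the Cox10 line, Slc25a15 (-0.003 to 0.046), Slc25a33 (-0.140 to 0.077), Slc25a36 (-0.026 to 0.058), Slc25a39 (-0.060 to 0.044), Slc25a5 (-0.025 to 0.008), Timm17b (-0.041 to 0.056), Timm8a1 (-0.167 to 0.011), Tomm22 (-0.062 to 0.016), Tomm7 (-0.104 to 0.067). The planned count tests in edgeR and DESeq2 were not run: the deposited values are scaled and fall on whole steps, but most steps lie so near 1 that they were not taken as recovered reads.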

Other observations

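Control lungs of the 3 lines, which were normalised in separate tables and were not tested against each other, read some members at different levels. For 23 of the 61 members the highest control mean was over 1.5 times the lowest, and in all 23 the Tfam table held the highest or the lowest of the 3. Slc25a23 averaged 3484 in Tfam controls, 1430 in Rptor controls and 1441 in Cox10 controls. Timm17b averaged 2365 in Tfam controls, 1229 in Rptor controls and 1324 in Cox10 controls, and Slc25a39 5944, 3179 and 3108. In the other direction Timm8a1 averaged 243.7 in Tfam controls, 473.9 in Rptor controls and 520 in Cox10 controls, and Slc25a20 589.5, 1064 and 983.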
